A study of Mus spretus with 12 samples.

Results

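The 10 genes described here (Marco, Clec4f, Fcna, Lyz2, Cd5l, Vsig4, Timd4, Csf1r, Cd68 and Cd163) are markers of Kupffer cells, the resident macrophages of the liver. They were chosen by name: every spot, other than control spots, whose gene name in the scanner files equals one of the 10 was taken. This gave 15 of the 56605 probes on the array and 10 of its 37074 gene names. Of the 15 probes 13 passed the filter on dim probes, and all 10 genes were among the 18678 genes tested. RNA came from the livers of male mice of the inbred strain SPRET/EiJ (Mus spretus), which entered the experiment at 20 months of age and were 22 months old after 60 days of feeding. The group labelled PXDDE ate feed with 450 mg/kg of p,p'-DDE dissolved in corn oil and drank water with Pedro Ximenez must, a grape must, which brought polyphenols at 85 mg/L and the sugars glucose and fructose at 31 g/L in all. The group labelled DDE ate the same DDE feed without the must. Controls ate the base diet with corn oil. p,p'-DDE is a long-lived metabolite of the insecticide DDT. No group received the must alone or the sugars alone, so the polyphenols and the sugars of the must cannot be told apart. Each group had 4 arrays. The labels do not say whether each array holds 1 mouse or a pool, so the p-values measure only the spread between these arrays, which may be technical.

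Total RNA was labelled with Cy3 and hybridised to 1-colour Agilent arrays of 60-base probes. Between 50.12% and 52.01% of the spots were well above background on each array, and none was saturated. Levels are given as the log2 processed signal relative to the array's own 75th percentile, so that 0 is the 75th percentile and a difference of 1 is a doubling. Levels of different probes are not set against each other. In means over a list of genes, a value below the lowest level well above background on that array was raised to that level. Such a mean can therefore fall less than its dim genes do. Markers of hepatocytes had a mean level of 6.93 to 6.95 on the PXDDE arrays, 6.77 to 7.03 on the DDE arrays and 6.94 to 6.995 on the control arrays (12 genes). Genes of tissues other than liver also differed between the groups: the mean of 8 adrenal cortex markers lay between 1.5 and 1.6 on the PXDDE arrays, between -2.31 and -2.22 on the DDE arrays and between 0.88 and 0.99 on the control arrays. The mean of 8 pancreatic acinar markers lay between 7.36 and 7.40, between 4.86 and 5.0 and between 5.19 and 5.25 on the same groups of arrays, and that of 8 skeletal muscle markers between 2.13 and 2.32, between 2.52 and 2.76 and between 3.91 and 4.03. The part of these genes in the results below was not tested.

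Kupffer cells line the liver sinusoids, where they take up bacteria, dying cells, aged erythrocytes and oxidised lipids from portal blood. Their identity depends on signals of the hepatic niche, among them CSF1 receptor ligands, Notch ligands and members of the TGF-beta and BMP family, and on the transcription factors LXR-alpha and SpiC. Clec4f, Timd4, Vsig4, Cd5l, Marco and Fcna are largely restricted to resident macrophages in mouse liver. Csf1r, Cd68 and Lyz2 are shared with other macrophages and monocytes, and Lyz2 also with neutrophils. In whole liver RNA, fewer cells of a type and less RNA per cell cannot be told apart.

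The last 30 bases of the measured probes of every marker except Csf1r, whose 2 probes are not printed, are given here to show which stretch of each transcript was measured and that the 2 probes of Lyz2 and of Cd68 read separate stretches. They come from the scanner files. The array was made for Mus musculus, and the fit of the probes to Mus spretus transcripts was not examined. Capitals mark AATAAA, the most common polyadenylation signal, searched on the printed strand only. It occurred in the last 30 bases of 8.13% of all probes and in 1 of the 11 listed here, that of Cd163. A match is a description of these letters. The number after a repeated name is the base of the transcript at which the probe starts, per the scanner files.
Marco: gtgtctttggttccacccacatggaaatct
Timd4: ttgactatagtgccttctgaactcttgcag
Cd163: aaaaatgttattAATAAAgaaacggaaatc
Cd68, base 834: agcatagttctttctccagctgttcacctt
Cd68, base 1127: acagttaccttccttctctgtctttaggaa
Clec4f: gactgtgttcacgtccggcagcagtggaat
Vsig4: gtgactaccatcgcaactgatgaaccagat
Fcna: gagaaatacaagctgaccttggggcagttt
Lyz2, base 94: ggaatggaatggctggctactatggagtca
Lyz2, base 1146: gacagatgagcctgtatcagcaaataacca
Cd5l: ttagaagaagaaggtcgttggagtgtgcct

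The scanner files place these probes on the mouse build mm9. The Marco probe lies at chr1:122371115-122371134 on the minus strand, an interval that covers 20 of its 60 bases. The Clec4f probe lies at chr6:83595281-83595339 (minus strand) and the Cd163 probe at chr6:124280484-124280543 (plus strand). The Vsig4 probe lies at chrX:93443157-93443216 (minus strand), the Cd5l probe at chr3:87174823-87174882 (plus strand) and the Fcna probe at chr2:25480749-25480808 (minus strand). The brighter Lyz2 probe lies at chr10:116714450-116714509 (minus strand), the Timd4 probe at chr11:46657173-46657232 (plus strand) and the brighter Cd68 probe at chr11:69477775-69477834 (minus strand). Exons and UTRs are not stated, since no annotation was used here.

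Most of the markers were lower in both DDE-fed groups than in controls, and lower again with the must. In PXDDE against control 9 of the 10 markers fell, with Lyz2, Marco and Timd4 at 41.6%, 50.3% and 60.7% of the control signal, and Cd163 was not called. In PXDDE against DDE 7 of 10 fell, and in DDE against control 6 of 10 fell. No marker rose in any of the 3 comparisons. Calls were made where limma, fitted over all 12 arrays, gave an adjusted p under 0.05 (Benjamini-Hochberg over the 18678 genes). Falls were common over the whole array: 39.3%, 29.7% and 26.3% of all genes tested were called lower in the same 3 comparisons. The median change of the markers was -0.62, -0.36 and -0.28, against -0.06, -0.04 and -0.02 over all genes tested. The groups did not overlap, with all 4 arrays lower, for 9, 6 and 6 of the 10 markers, beside 36.3%, 26.4% and 24.1% of all genes. The 3 comparisons share arrays with each other, so their values stand side by side and are not independent.

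**Figure D1:**
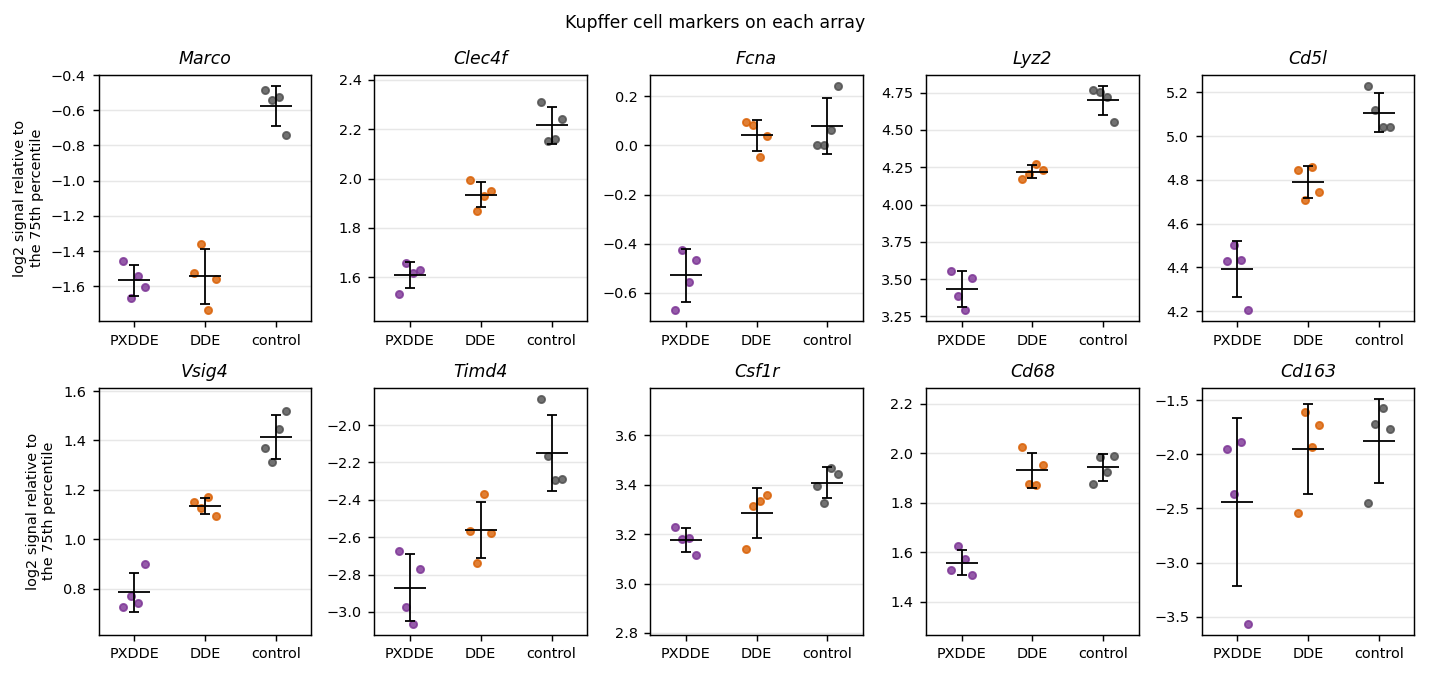
Level of each marker on each array (vertical axis, log2 signal relative to the array's 75th percentile, own range in each panel) in the PXDDE, DDE and control groups. Points are arrays, the wide bar is the mean and the error bar the SD of 4 arrays. The Marco arrays of PXDDE and DDE share one range below the controls, whereas Clec4f, Lyz2, Cd5l and Vsig4 show 3 separate levels and Fcna and Cd68 are low in PXDDE alone.

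Among the receptors for uptake, Marco fell most in the DDE-fed group. MARCO is a class A scavenger receptor that binds bacteria and modified lipoproteins. Its level was -1.46, -1.67, -1.54 and -1.60 on the PXDDE arrays, -1.52, -1.36, -1.74 and -1.56 on the DDE arrays and -0.49, -0.54, -0.53 and -0.74 on the control arrays. Every array of both DDE-fed groups lay below every control array, while the PXDDE and DDE arrays overlapped. The change was -0.97 ± 0.08 (SE, n = 4 per group, adjusted p 3.38e-06, limma) in DDE against control and -0.99 ± 0.08 (adjusted p 7.89e-07, limma) in PXDDE against control. Between PXDDE and DDE the change was -0.02, with a 95% interval of -0.21 to 0.16, and Marco was not called.

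Timd4 encodes TIM-4, a phosphatidylserine receptor by which resident macrophages take up apoptotic cells. Its level was -2.67, -2.97, -3.06 and -2.77 on the PXDDE arrays, -2.57, -2.74, -2.37 and -2.58 on the DDE arrays and -1.86, -2.16, -2.29 and -2.29 on the control arrays. All arrays of both DDE-fed groups lay below all control arrays, and the PXDDE and DDE arrays overlapped. Timd4 fell by 0.72 in PXDDE against control (SE 0.117, adjusted p 0.000175, limma) and by 0.41 in DDE against control (adjusted p 0.0124, limma). In PXDDE against DDE it fell by 0.31 with an adjusted p of 0.0469 (limma), a call that was lost in 16 of 26 alternative settings, among them the removal of any 1 of 9 arrays (control 2, 3 or 4, DDE 1, 3 or 4, PXDDE 2, 3 or 4). In DDE against control the call was lost in 4 of 26, among them quantile normalisation (adjusted p 0.0793, limma) and the deposited values (adjusted p 0.227, limma). Its arrays had an SD of 0.18 in PXDDE, 0.15 in DDE and 0.20 in controls.

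Cd163, the receptor for complexes of haptoglobin and haemoglobin, was not called in any comparison. Its level was -1.95, -2.37, -1.89 and -3.56 on the PXDDE arrays, -2.54, -1.61, -1.93 and -1.73 on the DDE arrays and -2.45, -1.72, -1.57 and -1.77 on the control arrays. The 3 groups overlapped, with 1 PXDDE array far below the others. The 95% interval of the change ran from -1.34 to 0.21 in PXDDE against control and from -0.85 to 0.70 in DDE against control. The falls of all called markers lie within the first interval, and those of all but Marco within the second. The second Cd163 probe was well above background on 0 of 12 arrays.

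Cd68 encodes macrosialin, a heavily glycosylated protein of macrophage lysosomes and endosomes. The brighter of its probes read 1.53, 1.62, 1.57 and 1.51 on the PXDDE arrays, 2.02, 1.88, 1.87 and 1.95 on the DDE arrays and 1.87, 1.98, 1.92 and 1.99 on the control arrays. Every PXDDE array lay below every other array, and the DDE and control arrays overlapped. Cd68 fell by 0.37 in PXDDE against DDE (SE 0.049, adjusted p 8.38e-05, limma) and by 0.39 in PXDDE against control (adjusted p 2.44e-05, limma). With median centring the change in PXDDE against control was -0.011 and was not called (adjusted p 0.858, limma). In DDE against control its change was -0.01, with a 95% interval of -0.12 to 0.10.

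The lectin and complement receptors Clec4f and Vsig4 gave 3 separate levels. Clec4f is a C-type lectin for galactose-bearing glycans that in mouse liver is found on Kupffer cells. Its level was 1.53, 1.66, 1.62 and 1.63 on the PXDDE arrays, 1.99, 1.87, 1.93 and 1.95 on the DDE arrays and 2.31, 2.15, 2.16 and 2.24 on the control arrays. No group overlapped another. Clec4f fell by 0.33 in PXDDE against DDE (SE 0.0494, adjusted p 0.000242, limma) and by 0.28 in DDE against control (adjusted p 0.000704, limma), and PXDDE livers had 65.7% of the control signal.

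Vsig4 encodes CRIg, which captures particles coated with fragments of complement C3. Its level was 0.73, 0.77, 0.74 and 0.90 on the PXDDE arrays, 1.15, 1.13, 1.17 and 1.09 on the DDE arrays and 1.37, 1.31, 1.45 and 1.52 on the control arrays. The 3 groups were again apart. The change was -0.35 ± 0.05 in PXDDE against DDE (SE, n = 4 per group, adjusted p 0.000298, limma) and -0.28 ± 0.05 in DDE against control (adjusted p 0.00148, limma). The transcript of its ligand C3, made mainly by hepatocytes, was not called in PXDDE against DDE (change -0.10, adjusted p 0.0907, limma) and rose by 0.13 in DDE against control (adjusted p 0.0359, limma).

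Fcna encodes ficolin A, a soluble lectin that starts the lectin pathway of complement. Its level lay between -0.67 and -0.42 on the PXDDE arrays, between -0.05 and 0.09 on the DDE arrays and between 0.00 and 0.24 on the control arrays. The PXDDE arrays were all below the others, and the DDE and control arrays overlapped. Fcna fell by 0.57 in PXDDE against DDE (SE 0.0694, adjusted p 4.69e-05, limma) and by 0.61 in PXDDE against control (adjusted p 1.02e-05, limma). In DDE against control the change was -0.04, with a 95% interval of -0.19 to 0.12.

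Of the secreted products, Lyz2 fell most of the 10 markers in PXDDE against control and in PXDDE against DDE. It encodes lysozyme, which cleaves bacterial cell walls. Its brighter probe read 3.55, 3.39, 3.29 and 3.51 on the PXDDE arrays, 4.17, 4.204, 4.27 and 4.23 on the DDE arrays and 4.77, 4.75, 4.72 and 4.56 on the control arrays. No group overlapped another. Lyz2 fell by 0.79 in PXDDE against DDE (SE 0.0659, adjusted p 2.65e-06, limma), by 0.48 in DDE against control (adjusted p 0.000122, limma) and by 1.26 in PXDDE against control (adjusted p 1.79e-08, limma). Lyz2 has a near-identical neighbouring copy, Lyz1, and whether the probes tell them apart was not tested. Markers of neutrophils, which also contain lysozyme, were lower on the PXDDE arrays as well, while their DDE and control arrays overlapped: their mean lay between -1.48 and -1.28 on the PXDDE arrays, between 0.02 and 0.14 on the DDE arrays and between 0.11 and 0.17 on the control arrays. Of 13 neutrophil markers 12 fell in PXDDE against DDE, among them S100a8 by 2.53 (adjusted p 2.78e-11, limma), and 6 fell and 2 rose in DDE against control. Over all genes 29.7% were called lower in PXDDE against DDE. In DDE against control 26.3% were called lower and 24% higher. The part of neutrophils in the change of Lyz2 was not tested.

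Cd5l encodes AIM, a secreted scavenger-receptor protein that supports macrophage survival and binds lipids and IgM. Its level was 4.43, 4.502, 4.43 and 4.204 on the PXDDE arrays, 4.84, 4.71, 4.86 and 4.75 on the DDE arrays and 5.23, 5.12, 5.04 and 5.04 on the control arrays. The 3 groups were apart. Cd5l fell by 0.40 in PXDDE against DDE (SE 0.0709, adjusted p 0.000747, limma) and by 0.32 in DDE against control (adjusted p 0.00314, limma). Nr1h3, which encodes LXR-alpha, a known activator of Cd5l in mouse macrophages that hepatocytes also express, fell by 0.30 (adjusted p 0.000108, limma) and by 0.11 (adjusted p 0.0399, limma) in the same comparisons. Neither fall of Nr1h3 was called with quantile normalisation, and in DDE against control it rose by 0.12 with median centring.

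Csf1r encodes the receptor through which CSF1 and IL-34 keep macrophages alive, and it changed least of the called markers in PXDDE against control. Its brighter probe read 3.23, 3.18, 3.19 and 3.11 on the PXDDE arrays, 3.14, 3.31, 3.33 and 3.36 on the DDE arrays and 3.39, 3.33, 3.47 and 3.44 on the control arrays. The PXDDE arrays lay below all control arrays, and the DDE arrays overlapped with both. Csf1r fell by 0.23 in PXDDE against control (SE 0.0559, adjusted p 0.00291, limma). It was not called in PXDDE against DDE (change -0.11, adjusted p 0.122, limma) or in DDE against control (change -0.12, adjusted p 0.0918, limma). The fall in DDE against control was called with quantile normalisation (adjusted p 0.0221, limma), with normexp and quantile together (adjusted p 0.0361, limma) and with the deposited values (adjusted p 0.0477, limma), whereas with median centring the change was 0.11 and was not called. With median centring Csf1r rose by 0.143 in PXDDE against control (adjusted p 0.0329, limma). Without DDE replicate 1, the lowest array of its group, the fall in PXDDE against DDE was called (change -0.16, adjusted p 0.0157, limma). Of its ligands, Csf1 rose by 0.31 in PXDDE against DDE (adjusted p 0.00191, limma), whereas Il34 fell by 0.31 in PXDDE against control (adjusted p 0.00227, limma), a direction that turned to 0.065 with median centring. Of 14 other genes of the CSF1 receptor pathway that were tested, 5 rose and 6 fell in PXDDE against DDE, beside 20.2% of all genes called higher and 29.7% called lower. In DDE against control 2 rose and 4 fell, beside 24% called higher and 26.3% called lower, so the falls lay near the share over all genes. With median centring 7 rose and 2 fell there. Of all 18678 genes 9019 were called higher and 11.1% lower with that scaling, so both counts lay near these shares. Those that moved include Irf8, a myeloid transcription factor, which fell by 0.36 in DDE against control (adjusted p 0.000168, limma; not called with median centring), and Socs1, an inhibitor of cytokine signalling, which rose by 1.00 in PXDDE against DDE (adjusted p 3.69e-05, limma).

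**Figure D2:**
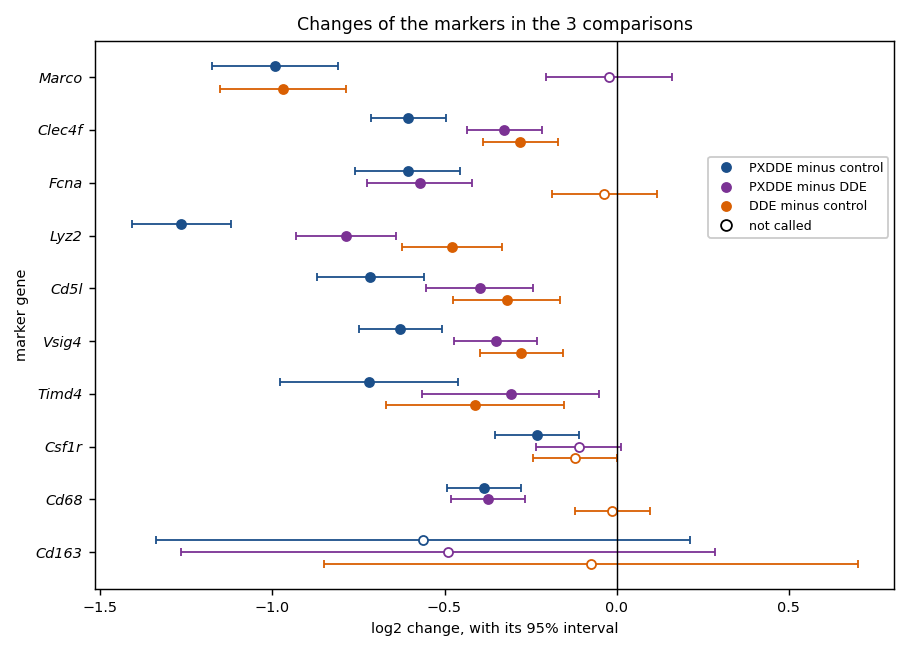
Log2 change of each marker (horizontal axis) in PXDDE minus control, PXDDE minus DDE and DDE minus control. Points are changes with their 95% interval from limma, and open points were not called. All 10 points lie below 0 in each comparison, and the Cd163 intervals are the widest.

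Lyz2, Csf1r and Cd68 were each read by 2 probes that passed the filter, and the probes of Csf1r disagreed. In a fit with 1 value per probe, both Lyz2 probes fell in every comparison, by 1.06 (probe at base 94) and 1.26 (probe at base 1146) in PXDDE against control. Both Cd68 probes fell in PXDDE against DDE, by 0.28 (adjusted p 0.036, limma) and 0.37. The smaller fall, of the probe at base 834, was not called with quantile normalisation (adjusted p 0.0561, limma) or the deposited values (adjusted p 0.0577, limma). With median centring it was not called either (adjusted p 0.286, limma). The Csf1r probe that starts at base 3806 of the transcript fell by 0.23 in PXDDE against control (adjusted p 0.00363, limma), while the one at base 1841 rose by 0.14 (adjusted p 0.0261, limma), with all PXDDE arrays above all control arrays. The rise of the second probe was called with all 5 other scalings as well. With the mean of both probes Csf1r was not called in PXDDE against control (change -0.04, adjusted p 0.339, limma), so the direction given above is that of its brighter probe alone.

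**Figure D3:**
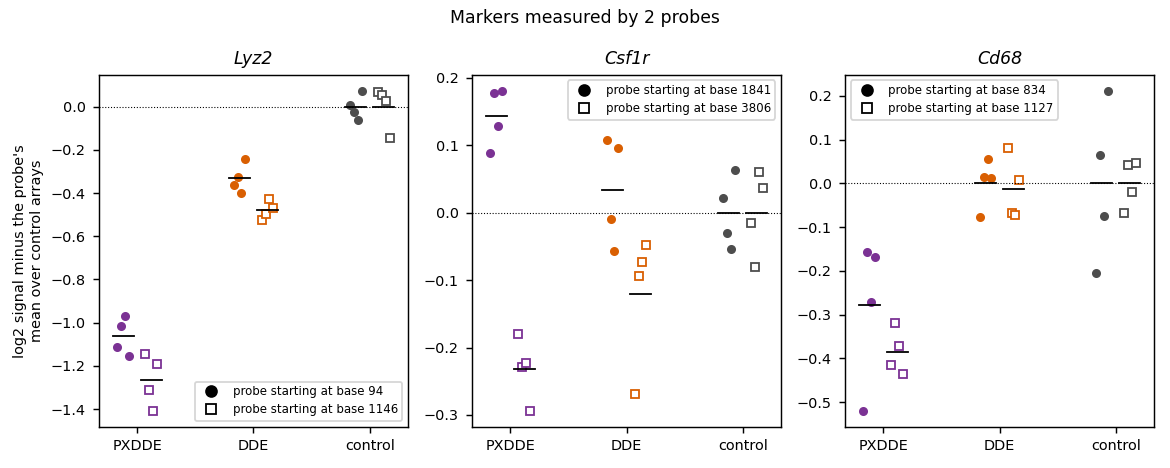
Signal of each probe minus its own mean over the control arrays (vertical axis, log2) for the 3 markers with 2 measured probes, by group. Filled circles are the probe nearer the start of the transcript, open squares the other, and bars are means of 4 arrays. The Lyz2 probes move together, and the Csf1r probes part in PXDDE, to 0.14 and -0.23.

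With each gene's brightest probe and the scaling as reported, the group means of all 10 markers ran in one order, lowest in PXDDE, then DDE, then control. Neighbours in that order were both called apart for Clec4f, Lyz2, Cd5l, Vsig4 and Timd4. For Fcna and Cd68 the DDE and control means did not differ beyond their spread, and for Marco the PXDDE and DDE means did not. For Csf1r only the ends of the order were called apart, and for Cd163 no pair was. The second Csf1r probe ran in the opposite order, with means of 0.72 in PXDDE, 0.61 in DDE and 0.58 in control. The order also depended on the scaling where neighbours were not called apart. With quantile normalisation Cd163 was higher in DDE than in control by 0.05, and Marco was higher in PXDDE than in DDE by 0.01. Within the slides that held both groups, Marco, Clec4f, Lyz2, Cd5l, Vsig4 and Timd4 were lower in DDE than in control on 3 of 3 slides. Clec4f, Fcna, Lyz2, Cd5l, Vsig4 and Cd68 were lower in PXDDE than in DDE on 3 of 3 slides, whereas the Timd4 difference ran from -0.69 to 0.06. Csf1r, which was not called there, was also lower on 3 of 3, by 0.024 to 0.15. In PXDDE against control every marker was lower on 3 of 3 slides, the uncalled Cd163 included. How many of all genes share such a pattern was not computed.

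The size of these changes, and for some markers their direction and call, depended on the scaling. The 75th percentile to which the levels are relative was 691.56 to 709.66 on the PXDDE arrays. It was 550.57 to 661.83 on the DDE arrays and 492.02 to 569.92 on the control arrays. The cause of this difference was not tested. Centring each array on its median in place of its 75th percentile moved the median change of all genes to 0.21 in DDE against control, 0.10 in PXDDE against DDE and 0.32 in PXDDE against control. With it, Marco and Lyz2 still fell in DDE against control, Clec4f, Cd5l, Vsig4 and Timd4 were no longer called, and Fcna and Cd68 rose by 0.20 and 0.22. In PXDDE against control it ended the call of Cd68 and turned that of Csf1r to a rise, while the falls of the other 7 called markers stayed called. The share of rises among all genes called in DDE against control was 81.3% with median centring, against 47.7% as reported. In PXDDE against control that share was 73.1% with median centring, against 44.5%, and in PXDDE against DDE it was 66.3%, against 40.6%, and 52.2% with quantile normalisation, 52.6% with normexp and quantile together and 52.6% with the deposited values. Measured from the median of all genes, Marco, Clec4f, Lyz2, Cd5l, Vsig4 and Timd4 were below it in DDE against control under all 6 scalings, Marco by 0.72 to 0.94 and Lyz2 by 0.43 to 0.53. So were Fcna, at -0.054 to -0.005, and Csf1r, at -0.2 to -0.075, which were not called there as reported. Cd68 and Cd163 were below it under 3 of the 6. In PXDDE against control all 10 markers were below the median of all genes under all 6 scalings. Median centring and the 75th percentile differ by a constant per array. Measured from the median of all genes they therefore give the same values, and median centring adds no separate check here.

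**Figure D4:**
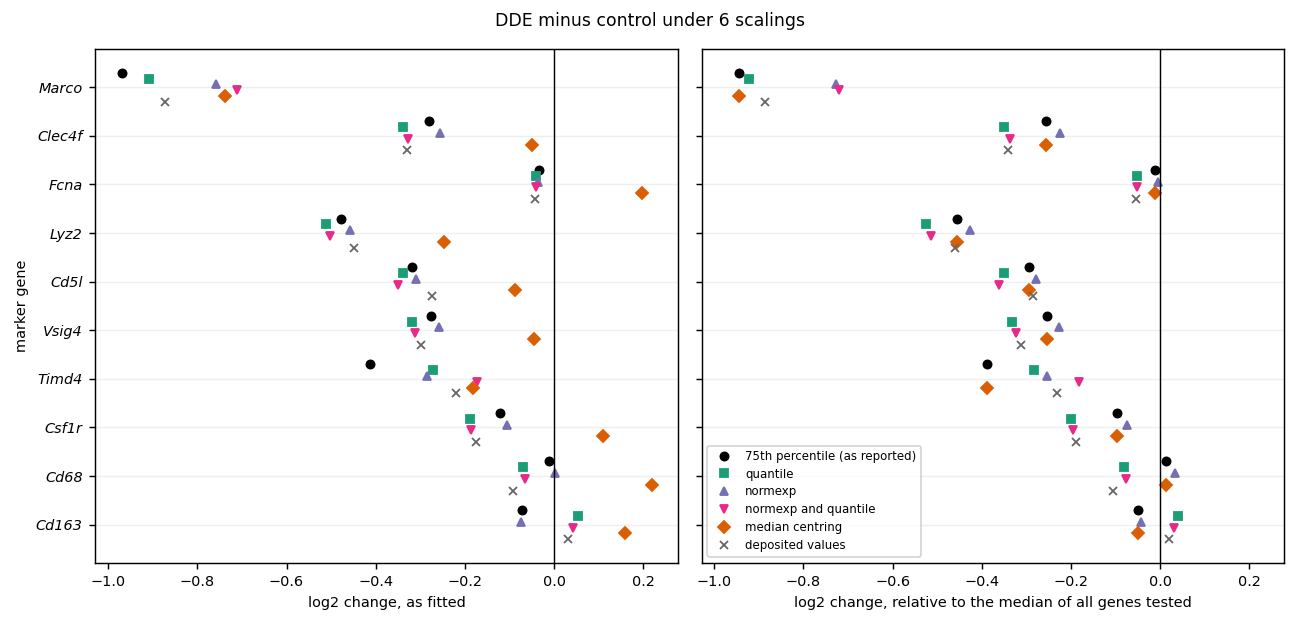
Change of each marker in DDE minus control under 6 scalings, as fitted (left) and relative to the median change of all genes tested (right), both on a log2 horizontal axis. With median centring Fcna, Csf1r, Cd68 and Cd163 lie above 0 as fitted, and relative to the median of all genes Cd68 and Cd163 lie on both sides of 0.

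Profiles over the 12 arrays, each centred on its own mean, were compared by the root mean square difference for the 8 markers whose group means span at least 0.5. The marker pair most alike was Clec4f and Vsig4, with a difference of 0.07. Neighbours were then sought among the other genes tested. This search left out the markers themselves, genes without a standard symbol and genes with a missing value, so a closer gene among those is possible. Among the genes searched, the closest to Clec4f were Dbi and Fau (0.04 each). Those closest to Vsig4 were Cd59a and Vps53, and those closest to Cd5l were Vamp5 and Hdac7. The ribosomal protein genes Rpl9 and Rpl22l1 were closest to Lyz2 (0.05 each). Fndc5 and Ppp1r3c were closest to Marco (0.11 and 0.12), Slc1a4 and Coa4 to Fcna, and Mnd1 and Tbc1d4 to Timd4. The closest to Cd163, Chd4 and Gas6, were at 0.25 each, which no other marker's neighbours reached.

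Other genes of Kupffer cells moved in part with the markers. Of 18 further genes that were tested, 10 fell and 2 rose in PXDDE against DDE, 13 fell and 2 rose in PXDDE against control, and 10 fell and none rose in DDE against control. Over all genes 29.7%, 39.3% and 26.3% were called lower, and 20.2%, 31.6% and 24% higher, in these 3 comparisons. Spic, the transcription factor of iron-recycling macrophages, fell by 0.91 in PXDDE against DDE (adjusted p 1.29e-06, limma) and by 0.72 in DDE against control (adjusted p 8.35e-06, limma). Clec1b, a platelet-binding lectin receptor, fell by 0.46 and 0.32 in the same comparisons, and Folr2, a folate receptor of resident macrophages, by 0.54 and 0.32. The 2 that rose with the must were Id3 by 0.86 (adjusted p 2.57e-08, limma) and Id1 by 0.69 (adjusted p 3.02e-05, limma), targets of BMP signalling that other liver cells also express. With median centring 3 fell and 6 rose in DDE against control, where 11.1% of all 18678 genes were called lower and 9019 higher. With it, 5 fell and 5 rose in PXDDE against control, where 20.4% of all genes were called lower and 10315 higher. The rises were less frequent than over all genes in both. Clec1b and Folr2 were below 0 but not called in DDE against control with that scaling.

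Of 30 genes tested that macrophages share across tissues, 20 fell and 1 rose in PXDDE against DDE. Over all genes 29.7% were called lower and 20.2% higher there. In DDE against control 15 fell and 7 rose. Falls were called for 26.3% of all genes there, and the rises lay near the 24% of all genes called higher. Falls in both comparisons included Adgre1, which encodes F4/80, by 0.31 and 0.29, the complement gene C1qb by 0.47 and 0.22, and the signalling adaptor Tyrobp by 0.75 and 0.52. Those that rose in DDE against control included Mpeg1, a pore-forming protein, by 0.39 (adjusted p 0.000108, limma), Grn by 0.50 (adjusted p 4.62e-06, limma) and Cd14, a co-receptor for bacterial lipopolysaccharide, by 0.45 (adjusted p 0.000127, limma). Cd14 fell by 0.67 in PXDDE against DDE (adjusted p 6.44e-06, limma). With median centring 4 fell and 8 rose in DDE against control, and C1qb was at 0.01. Of all 18678 genes 11.1% were called lower and 9019 higher there with that scaling, so the rises were less frequent than over all genes.

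Most lysosome genes, many of which hepatocytes express as well, were higher in DDE than in control, where Lyz2 fell and Cd68 was not called. Of 20 tested 17 rose, beside 24% of all genes, with a median change of 0.34, and 15 rose in PXDDE against control, where 31.6% of all genes were called higher. Npc1, a lysosomal cholesterol transporter, rose by 0.70 in DDE against control (adjusted p 1.92e-07, limma). In PXDDE against DDE 6 rose and 5 fell, beside 20.2% of all genes called higher and 29.7% called lower. The balance depended on the scaling. With quantile normalisation and with the deposited values 10 rose and 2 fell. With normexp and quantile together 11 rose and 3 fell, and with median centring 10 rose and 1 fell. Of all 18678 genes 4791, 4541, 4841 and 6476 were called higher under these scalings, in the order given. Called lower were 23.5%, 21.9%, 23.4% and 17.6%. Atp6v0d2, a proton pump subunit, was not well above background on any PXDDE or DDE array and passed the filter through the control arrays alone. Its signal was at least 2.66-fold lower in DDE than in control, which is given as a description with no test.

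Among the signals of the niche, 10 of 20 genes rose and 3 fell in PXDDE against DDE. Over all genes 20.2% were called higher and 29.7% lower there. In DDE against control 1 rose and 4 fell, beside 24% of all genes called higher and 26.3% called lower. The falls were no more frequent than over all genes in either comparison. Id1, Id3, Nr1h3, Csf1 and Il34 also stand in lists above and are counted again here. In DDE against control 3 rose and 1 fell with quantile normalisation, where 4780 of all 18678 genes were called higher and 23.2% lower. With median centring 10 rose and none fell, where 9019 of all 18678 genes were called higher. Notch2 rose by 0.51 in PXDDE against DDE (adjusted p 2.15e-05, limma) and the Notch ligand gene Jag1 by 0.43 (adjusted p 0.00182, limma), whereas Vcam1, an adhesion molecule of sinusoids and macrophages, fell by 0.51 (adjusted p 5.71e-05, limma). Of 15 ligands and partners of the markers, 2 rose and 7 fell in PXDDE against DDE, whereas 5 rose and 3 fell with quantile normalisation, with normexp and quantile together and with the deposited values. Of the same 15, 5 rose and none fell in DDE against control, where 10 rose with median centring. The shares over all genes given above stand beside the counts as reported and with median centring. For the other scalings in PXDDE against DDE, 4791, 4841 and 4541 of all 18678 genes were called higher, in the order given. Called lower were 23.5%, 23.4% and 21.9%. Hbb-b1 and Hba-a1, haemoglobin genes whose products Cd163 clears, fell by 1.14 and 0.63 in PXDDE against DDE. Mfge8, which bridges apoptotic cells to phagocytes, rose by 0.96 in DDE against control (adjusted p 3.94e-07, limma) and fell by 0.61 in PXDDE against DDE (adjusted p 1.53e-05, limma).

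Markers of other leukocytes and of stellate cells were also lower on average in PXDDE than in controls. The counts below stand beside 29.7% of all genes called lower and 20.2% called higher in PXDDE against DDE. In DDE against control the shares were 26.3% and 24%. Counts with median centring have other shares. With it, 17.6% of the 18678 genes were called lower and 6476 higher in PXDDE against DDE. In DDE against control 11.1% were called lower and 9019 higher. Of 13 monocyte markers 8 fell and 3 rose in PXDDE against DDE, and their mean lay between 0.28 and 0.36 on the PXDDE arrays, between 0.69 and 0.70 on the DDE arrays and between 0.90 and 1.09 on the control arrays. Of the same 13, 7 fell and none rose in DDE against control, where 3 fell and 1 rose with median centring. Of 10 dendritic cell markers 4 fell in PXDDE against DDE and 8 in DDE against control, where 4 fell and 1 rose with median centring. Of 9 T and NK cell markers 6 and 7 fell in the same comparisons. Of 7 B and plasma cell markers 4 fell in PXDDE against DDE and 6 in DDE against control, and their mean was -2.28 in PXDDE, -2.00 in DDE and -1.02 in controls. Stellate cell markers, from the pericytes of the sinusoid, were also lowest in PXDDE and highest in controls, with no overlap: the mean of 11 lay between 1.37 and 1.45 on the PXDDE arrays, between 1.54 and 1.59 on the DDE arrays and between 1.80 and 1.95 on the control arrays. Of these 6 fell and 2 rose in PXDDE against DDE, and 6 fell and none rose in DDE against control, where 3 fell and 3 rose with median centring. The 15 markers of sinusoidal endothelial cells, which line the same vessels, had a mean of 0.78 to 0.84 in PXDDE, 0.74 to 0.80 in DDE and 0.83 to 0.88 in controls. Of these 5 rose and 3 fell in PXDDE against DDE, where 8 rose and none fell with median centring. The 3 falls were below the share of all genes called lower. For comparison, the mean of the 10 Kupffer cell markers lay between 0.65 and 0.82 on the PXDDE arrays, between 1.08 and 1.15 on the DDE arrays and between 1.42 and 1.44 on the control arrays. The part of these other cells in the results for Csf1r, Cd68 and Lyz2 was not tested.

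**Figure D5:**
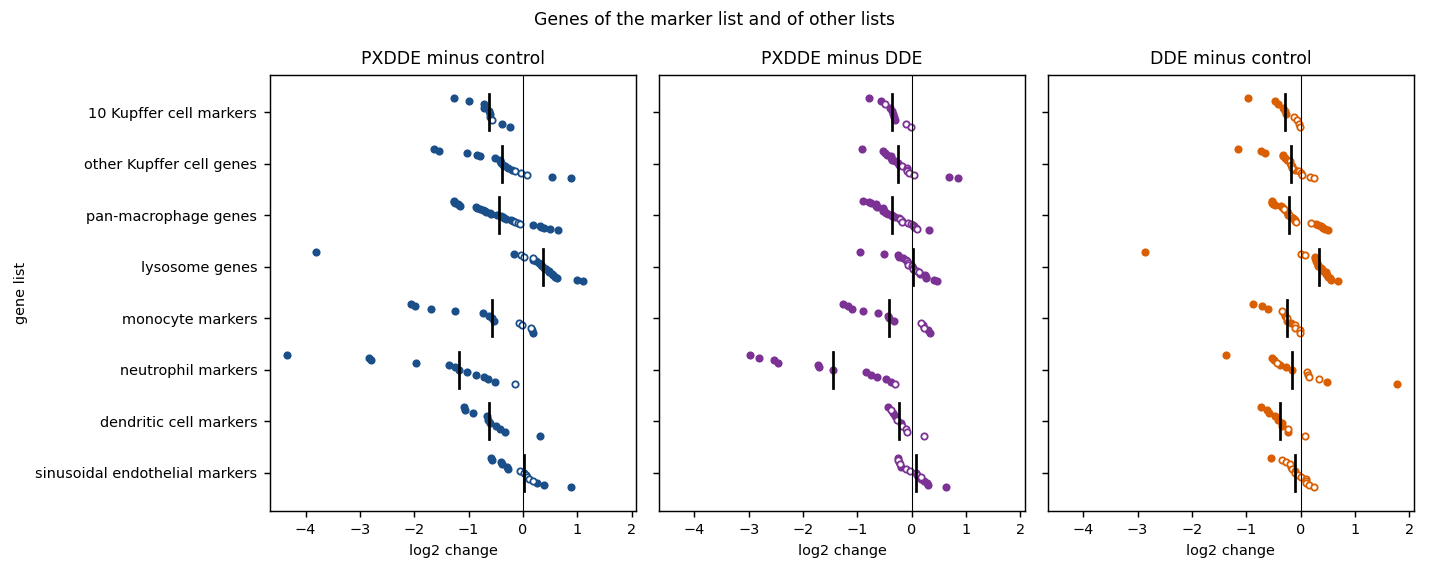
Log2 change (horizontal axis) of each gene of the marker list and of 7 other lists in the 3 comparisons. Points are genes, filled where called, and the vertical bar is the median of the list. The Kupffer cell markers have medians of -0.62, -0.36 and -0.28 from left to right, and the neutrophil list reaches a median of -1.45 in PXDDE minus DDE. The far left point of the lysosome list is Atp6v0d2, dim in both DDE-fed groups, whose plotted change is no bound.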

How the data were processed

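The scanner files hold an intensity per spot, and per the file headers the authors' deposited intensity (processed signal) had undergone spatial and multiplicative detrending. The submitters' processing notes list RMA, limma and Agilent Feature Extraction (11.5.1.1), without their order. The authors also deposited a table of log2 values whose making is not described; its scale was found from the correlation of each column with that array's own log2 signal (0.9949 to 0.9964). Column medians were 5.3243 to 5.3479, and how the table was centred is not known.

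Control spots and spots marked as outliers (102 to 177 per array) were left out, and the log2 processed signal was set relative to the array's 75th percentile. A probe was kept if every array of any 1 group had it well above background (27098 of 56605), and each gene took its brightest kept probe. One limma fit (version 3.58.1 in R 4.3.3, with the data.table package, version 1.17.8) over the 12 arrays with group as the only term left 9 residual degrees of freedom before eBayes, and p-values were adjusted over 18678 genes. The fit was tested on simulated data with independent noise and few changed genes, a setting that does not bear on the choice of scaling. The number of arrays limits the precision. The 5 slides held 2 or 3 groups each, and differences were also taken within slides.

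Alternatives were other scalings, filters and summaries of probes, a trend in the moderation, array weights, fits of the compared groups alone, a block for the replicate number or the slide, outlier spots retained, and omission of single arrays. The members and lists were chosen with earlier results of these data known. Some genes stand in several lists and are counted in each, so the lists are not independent. All 10 markers are named whatever their values. Of the other lists the rule takes, per comparison and direction, up to 3 called genes with the smallest p and the best-known markers, and the text names some of these, chosen after their values were seen. A search of promoters was planned and not run.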

Additional observations from a re-analysis of the deposited data

How the results depend on the processing

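Of 780 recomputed changes of single markers (30 changes under 26 alternatives), 725 kept their direction and their side of the threshold, 25 lost a call, 5 gained one and 25 changed sign. Marco and Lyz2 kept their calls in DDE against control and in PXDDE against control under all 26, as did Lyz2, Fcna, Cd5l, Vsig4, Clec4f and Cd68 in PXDDE against DDE. Median centring turned the change in DDE against control to 0.196 (Fcna), 0.11 (Csf1r), 0.219 (Cd68) and 0.158 (Cd163), that in PXDDE against DDE to 0.12 (Marco) and 0.033 (Csf1r), and that of Csf1r in PXDDE against control to 0.143, since it moves every gene of an array alike. The change of Cd163 in DDE against control was 0.053 with quantile normalisation, 0.042 with normexp and quantile together, 0.032 with the deposited values and 0.197 with the slide as a block. Cd68 was at 0.003 with normexp in the same comparison. Marco in PXDDE against DDE was at 0.011 with quantile normalisation, 0.021 with normexp and quantile together, 0.001 with the deposited values and 0.026 with the slide as a block. The cause was not tested for these settings. With 1 array left out in turn, the change in DDE against control ran from -0.061 to 0.02 for Fcna, from -0.043 to 0.008 for Cd68 and from -0.263 to 0.123 for Cd163, and that of Marco in PXDDE against DDE from -0.087 to 0.039. The number of markers called was between 4 and 6, 6 and 8, and 8 and 9 of 10 in DDE against control, PXDDE against DDE and PXDDE against control. These counts take both directions: with median centring 2 were lower and 2 higher in DDE against control. In PXDDE against control 7 were lower and 1 higher with median centring. With no filter on dim probes 14103 genes were called in PXDDE against DDE, against 9320, and 21803 in PXDDE against control, against 13242, with 37074 genes tested. With the replicate block 7, 9 and 6 markers and 8600, 12937 and 8785 genes were called in PXDDE against DDE, PXDDE against control and DDE against control. The replicate numbers did not pair the arrays: arrays of the same number correlated at -0.368 to 0.132 in their deviations from the group means, and 1 of 12 correlated best with its own number.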
